A study of Mus musculus with 8 samples.

Results

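Rostral and caudal pools of sorted Gfp-positive cells were compared across the whole ranked list of genes on a 2-colour Agilent mouse array. All 8 samples of the series entered: 4 rostral pools and 4 caudal pools, chosen by their labels. Both groups came from Pitx3(Gfp/+) embryos at E14.5, in which 1 Pitx3 allele carries a Gfp reporter, so every cell analysed was heterozygous at that gene. The ventral midbrain was cut into a rostral and a caudal piece, cells were freed with papain and sorted for Gfp. Each pool held cells of 5 to 7 embryos drawn from several litters, so no value belongs to 1 animal. The sorted pool was labelled with Cy3 (green) and the common reference, Gfp-negative cells of the same dissections, with Cy5 (red) on every array. A value below is the log2 ratio of green over red, called the log2 ratio to the reference, and a change is the rostral mean minus the caudal mean of these ratios. Of 55681 non-control probes, 36975 were well above background in green on at least 4 of 8 arrays and were compared, and they stood for 18110 named genes, each represented by its brightest probe.

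Midbrain dopaminergic neurons arise from the floor plate, and the homeobox gene Pitx3 marks them soon after they leave the cell cycle. Along the rostral to caudal axis, brain regions are told apart by combinations of transcription factors, many of them homeobox genes, laid down under the influence of signalling centres such as the isthmus between midbrain and hindbrain. The rostral edge of this field borders the diencephalon and hypothalamus, the caudal edge the isthmus, and the adult descendants form the substantia nigra, the ventral tegmental area and smaller groups, which differ in their targets and in how they withstand Parkinson's disease.

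The 8 arrays lay on 1 slide, in 2 rows that each held 2 pools of either part, and shared 1 scan. In green, 62.5% to 70.4% of an array's probes passed the scanner software's test of being well above background, and in red 54.0% to 63.5%. Across probes, the correlation of log2 ratios between pairs of arrays was 0.78 to 0.87. Cells of the labelled type were present in every pool: the mean log2 ratio of 12 dopaminergic markers was 3.15 to 3.25 in rostral and 3.34 to 3.40 in caudal pools. Pools were whole sorts, so fewer cells of a type and less RNA per cell cannot be told apart. Embryos of a litter were spread over pools, so that the tests weigh the difference against the variation among pools and not among litters.

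The promoters of 3 neighbouring gene pairs at the ends of the ranked list are shown, because 2 pairs moved together and the third moved apart: Evx1 with its opposite-strand transcript Evx1os (both higher in caudal pools), Dlx1 with Dlx2 (both higher in rostral pools), and Nkx2-1 (rostral) with Nkx2-9 (caudal). The sequences are the 250 bases before each RefSeq start, in build GRCm38.p6, 5′ to 3′ on the gene's own strand. Capitals mark a match, on either strand, to TAATTA (a core bound by many homeodomain proteins), TAATCC (the core favoured by Pitx and Otx proteins), TGTTTAC (forkhead), AAAGGTCA (bound by Nr4a proteins), TATAAA or CCAAT.
Evx1 (chr6:52313248-52313497, plus strand): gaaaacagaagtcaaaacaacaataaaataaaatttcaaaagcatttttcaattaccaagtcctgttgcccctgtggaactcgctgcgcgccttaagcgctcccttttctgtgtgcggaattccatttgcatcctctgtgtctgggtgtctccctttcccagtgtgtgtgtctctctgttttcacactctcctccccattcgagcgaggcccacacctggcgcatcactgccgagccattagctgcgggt
Evx1os (chr6:52314833-52315082, minus strand): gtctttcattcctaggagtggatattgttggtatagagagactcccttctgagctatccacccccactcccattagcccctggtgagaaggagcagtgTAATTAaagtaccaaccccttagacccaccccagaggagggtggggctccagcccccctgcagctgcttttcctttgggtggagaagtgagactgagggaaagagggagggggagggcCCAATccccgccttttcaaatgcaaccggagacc
Dlx1 (chr2:71529195-71529444, plus strand): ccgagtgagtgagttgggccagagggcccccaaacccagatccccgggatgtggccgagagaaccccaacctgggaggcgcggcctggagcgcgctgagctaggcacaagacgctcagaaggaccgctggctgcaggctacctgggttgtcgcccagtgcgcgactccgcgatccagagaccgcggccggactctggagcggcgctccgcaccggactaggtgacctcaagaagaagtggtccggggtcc
Dlx2 (chr2:71546755-71547004, minus strand): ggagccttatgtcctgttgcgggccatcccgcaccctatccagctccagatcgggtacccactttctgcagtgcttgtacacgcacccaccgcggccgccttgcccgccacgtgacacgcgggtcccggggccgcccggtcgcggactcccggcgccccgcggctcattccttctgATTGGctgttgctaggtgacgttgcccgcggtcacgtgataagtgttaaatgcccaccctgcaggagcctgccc
Nkx2-1 (chr12:56536909-56537158, minus strand): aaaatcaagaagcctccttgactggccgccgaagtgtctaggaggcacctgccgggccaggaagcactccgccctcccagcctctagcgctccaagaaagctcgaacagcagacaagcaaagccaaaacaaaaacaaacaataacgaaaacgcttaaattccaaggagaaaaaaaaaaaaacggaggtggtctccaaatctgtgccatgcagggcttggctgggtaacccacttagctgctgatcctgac
Nkx2-9 (chr12:56613285-56613534, minus strand): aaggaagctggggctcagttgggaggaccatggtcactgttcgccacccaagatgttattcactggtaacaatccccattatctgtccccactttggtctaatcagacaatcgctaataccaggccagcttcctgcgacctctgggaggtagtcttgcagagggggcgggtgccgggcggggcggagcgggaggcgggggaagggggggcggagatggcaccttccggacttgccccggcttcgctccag
Evx1os held TAATTA and CCAAT, Dlx2 held CCAAT, and the other windows held none of these letters. Promoters were found for 13371 of the genes compared, in 16757 windows. TAATTA stood in 3.25% of all windows, in 3.84% of those of rostral-high genes and in 2.95% of those of caudal-high genes. TAATCC stood in 5.32%, 6.03% and 3.64%, and CCAAT in 34.8%, 33.5% and 35.0% of the same windows, in that order. TGTTTAC stood in 2.35% of all windows (2.93% rostral-high, 2.05% caudal-high), AAAGGTCA in 1.00% (0.548% and 0.455%) and TATAAA in 8.44% (8.04% and 6.82%). A match describes letters in a window and is no evidence of binding.

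Across the ranked list, 908 of 18110 genes (5.01%) passed limma's test at an adjusted p below 0.05, 500 (2.76%) with higher levels in rostral pools, called rostral below, and 408 (2.25%) in caudal pools, called caudal. At probe level 1236 of 36975 (3.34%) passed. A change of at least 2-fold was added for 276 genes (1.52%), 165 of them rostral (0.911%) and 111 caudal (0.613%). The list was flat over most of its length: the median change was 0.01, and 90% of genes lay between the 5th and 95th percentiles of -0.47 and 0.54. For 2269 genes (12.5%) the pools of the parts did not overlap, and 906 of the 908 called genes were among them, the exceptions being Ndnf and Islr2. Of the called genes 152 crossed the reference, lying above it in every pool of the higher part and below it in every pool of the other, 101 on the rostral and 51 on the caudal side. Among them was Thbs1, the matrix protein thrombospondin 1, at 1.07, 1.73, 2.28 and 1.89 in rostral pools 1 to 4 and -1.04, -0.64, -0.60 and -0.44 in caudal pools 1 to 4. All rostral pools of Thbs1 lay above the reference and all caudal pools below it. The count of called genes fell to 480 without caudal pool 1, to 488 without caudal pool 4 and to 575 without rostral pool 4, and with 2 pools of each part, within either slide row alone, limma called 0 genes (2467 and 2550 at an unadjusted p below 0.05).

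**Figure D1:**
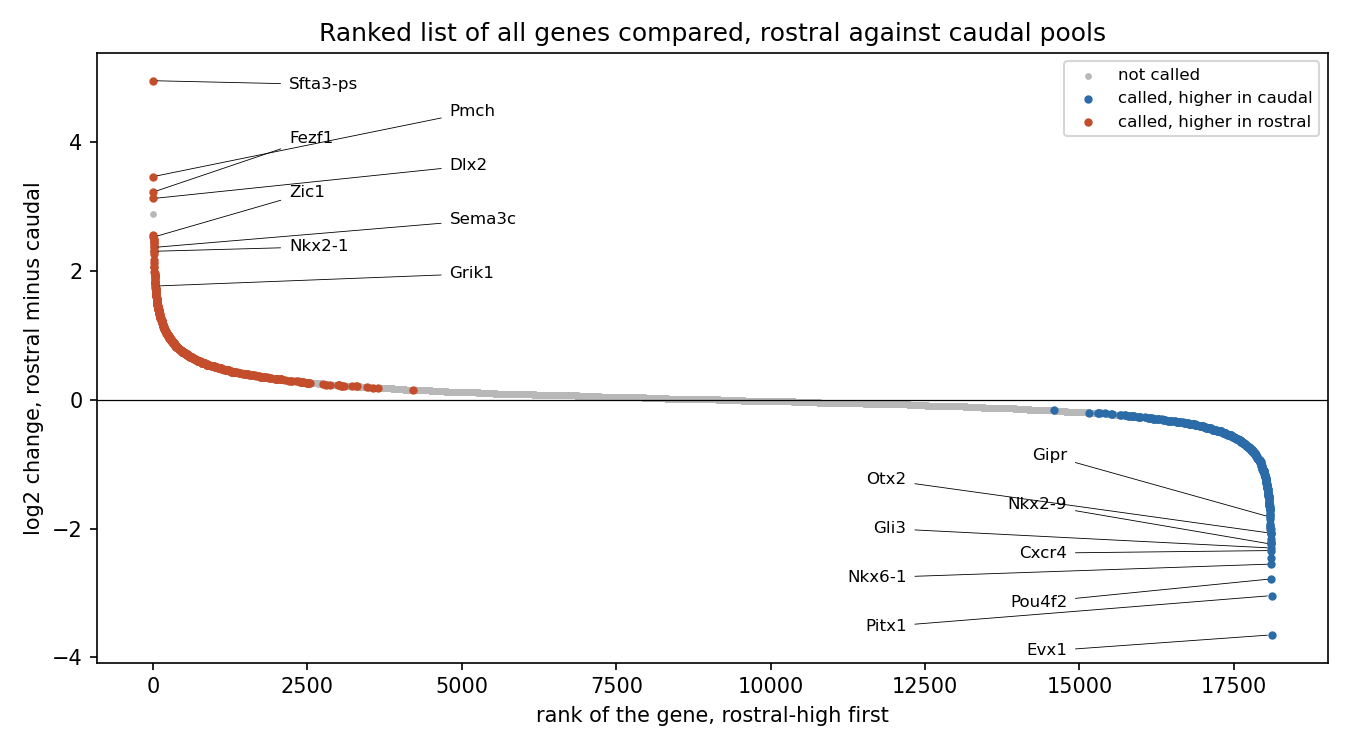
Each point is 1 of 18110 genes, placed by its rank (horizontal) and its log2 change, rostral minus caudal (vertical), coloured where limma called it. The curve is flat through the middle of the list and steep at both ends. Evx1 at -3.65 ends the caudal side, and Sfta3-ps ends the rostral side. Sfta3-ps has no exact change, since none of its caudal pools was well above background (at least 32.0-fold in mean green signal).

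The same comparison was made without the reference. The green channel alone, normalized between arrays, gave 859 called genes (4.74%), 493 rostral (2.72%) and 366 caudal (2.02%). Of the 908 genes called on the ratio, 751 were called there too. All 908 had the same sign in both. Of the 186 called genes that the text names, 28 were not called in green alone, and not each is marked below. Among the 28 were Nkx2-2, Tbr1, Irx4, Tcf7l1, Tcf7l2, Dll1, Gdf5, Pcdh8, Htr2c, Lrrc4c, Ndnf, Rims4, Syt6, Ccne1, Rrm2 and Rps27l. The reference channel on its own should hold the same RNA on all arrays: 4 of 36975 probes (0.0108%) were called in red between arrays that carried rostral and caudal pools, and 1095 (2.96%) had an unadjusted p below 0.05. Among the 908 called genes 1, Pitx1, was also called in red. Pitx3 differed between the measures. Its ratio did not change (-0.00, SE 0.09, adjusted p = 0.998), and in green alone it was called lower in rostral pools (-0.33, adjusted p = 0.0424). Slc6a3, the dopamine transporter, was at 0.24 on the ratio (SE 0.07, adjusted p = 0.126) and was called higher in rostral pools in green alone (0.67, adjusted p = 0.0102). For both genes red alone leaned the same way as green without being called, at -0.35 for Pitx3 and 0.48 for Slc6a3 (adjusted p = 0.999 for each). Of the 286 called genes measured by more than 1 passing probe, 241 had the same sign in all probes, 78 had another probe called in the same direction, and 0 had another probe called in the opposite direction. Among genes given below by their brightest probe, another probe was not called for Dach2 (0.02 and 0.54), Fgf12 (0.45 and 0.07), Grik3 (-0.21), Grin1 (-0.04), Hhat (-0.10), St3gal1 (0.46) and Tcf12 (-0.33), and Ntng1 had 1 probe called (0.92) and 1 not (0.16).

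**Figure D2:**
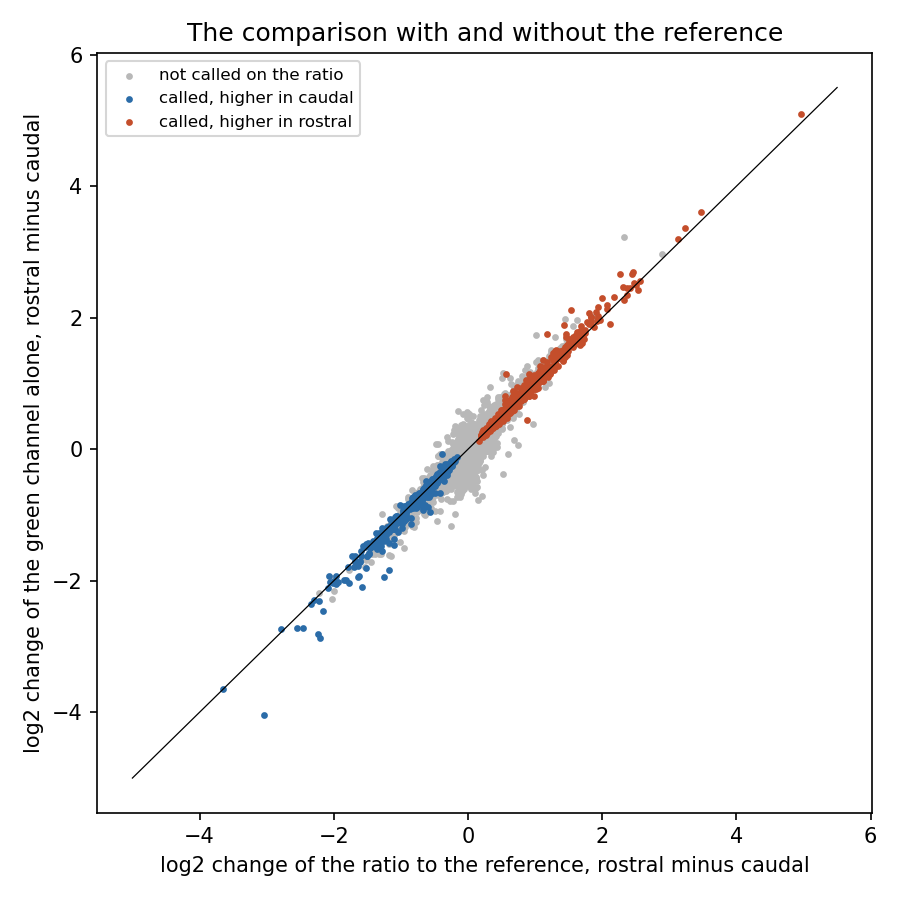
Each point is a gene, with the log2 change of the ratio to the reference on the horizontal axis and that of the green channel alone on the vertical axis; the line marks equality. All 908 coloured (called) genes lie in the quadrants of equal sign.

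Gene families differed in how much of them was called. The adhesion and guidance lists together had 59 of 349 tested genes called (16.9%), 40 rostral and 19 caudal, and the signalling lists 50 of 304 (16.4%), 26 rostral and 24 caudal. Transcription factor lists had 60 of 635 called (9.45%), excitability lists 52 of 569 (9.14%), and synapse and cytoskeleton lists 16 of 206 (7.77%), 15 of the last rostral. The housekeeping lists (ribosome, respiratory chain, proteasome, glycolysis, sterol synthesis, chaperones, cell cycle and others) had 19 of 748 called (2.54%), 15 of them caudal. The 748 include 285 olfactory receptor genes with 0 calls, which are not housekeeping genes and lower this share. The median size of change, without its sign, was 0.24 in adhesion and guidance, 0.25 in signalling, 0.17 in transcription factors and 0.08 in housekeeping lists, against 0.13 over all genes.

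**Figure D3:**
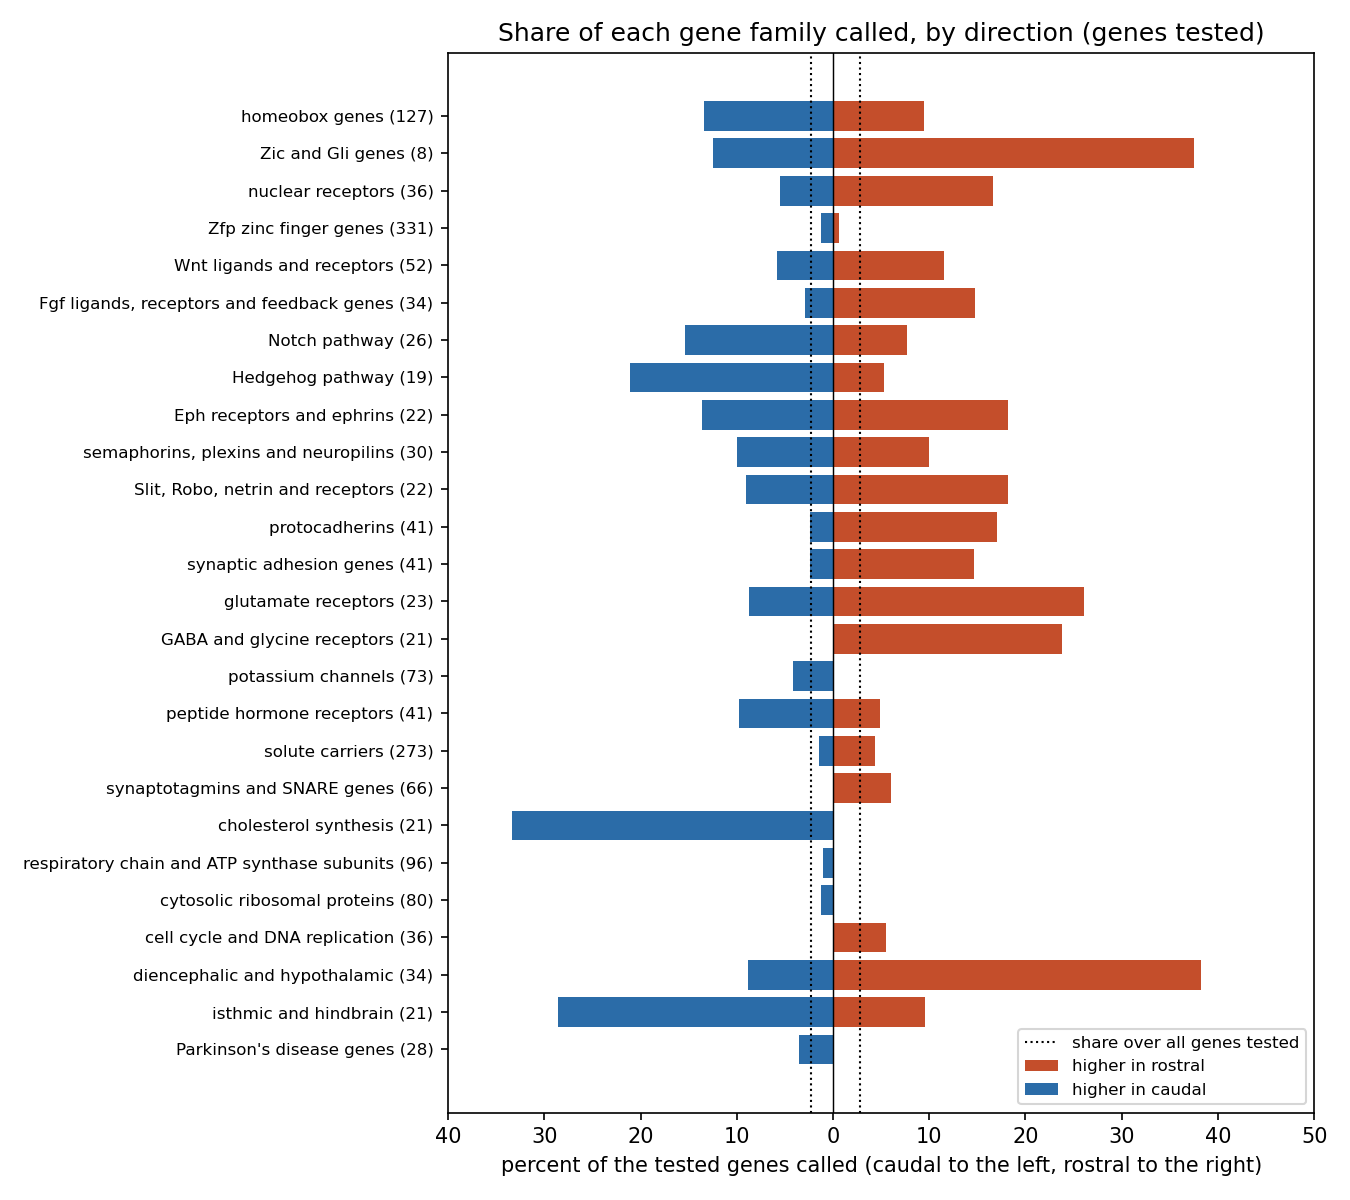
Bars give the percent of each family's tested genes (number in brackets) that limma called higher in rostral (right, red) or in caudal pools (left, blue); dotted lines mark the shares over all genes, 2.76% and 2.25%. Homeobox and guidance families extend both ways, glutamate, GABA and protocadherin genes mostly to the right, and cholesterol synthesis only to the left.

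Homeobox genes, the family that assigns regional identity, stood at both ends of the list. Of 127 tested, 12 were called rostral and 17 caudal (22.8%), with a median change of -0.01. Between 22 and 28 were called when any single pool was left out. On the rostral side were Dlx2, a forebrain gene of GABAergic neurons, and its neighbour Dlx1, Nkx2-1, which patterns the hypothalamus, and Six6, of the eye and hypothalamus. On the caudal side were Evx1, Pitx1, Pou4f2, Nkx6-1, Nkx2-9, Otx2 and Pax8.

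Dlx2 was at -1.82, -3.12, -1.62 and -2.03 in rostral pools 1 to 4 and at -5.57, -5.42, -5.17 and -4.96 in caudal pools 1 to 4 (change 3.13, SE 0.30, adjusted p = 0.00184). Rostral pool 2 was the lowest of its part and still far above every caudal pool. In rostral pools Dlx1 was higher by at least 2.89-fold, and none of the caudal pools was well above background. The fold compares mean green signals and is no confidence limit. Each caudal pool entered it at its own signal or at the dimmest measured signal, whichever was higher. Nkx2-1 was at -1.34, -1.63, -1.58 and -1.62 in rostral and -3.97, -3.84, -3.86 and -3.73 in caudal pools (change 2.31, SE 0.12, adjusted p = 1.7e-04). The pools of each part lay close together and the parts did not overlap. Sfta3-ps, a pseudogene beside Nkx2-1, exceeded its caudal level at least 32.0-fold in rostral pools and Six6 at least 3.76-fold, again with no caudal pool well above background. Gbx2, which sets the hindbrain side of the isthmus and is also a gene of the thalamus, exceeded it at least 2.88-fold on the same terms. The fitted ratio, with the dim caudal signals as they were, gave 31.0-fold for Sfta3-ps, 3.72-fold for Six6 and 2.85-fold for Gbx2.

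Pitx1, of the hindlimb and pituitary, was at 3.80, 3.85, 3.72 and 3.73 in caudal pools 1 to 4 and at 1.59, 0.89, -0.47 and 0.93 in rostral pools 1 to 4 (change -3.04, SE 0.36, adjusted p = 0.00436). The caudal pools agreed closely while the rostral pools were spread, rostral pool 3 being lowest. The reference on the same arrays was also lower beside rostral pools (-0.83 in red alone, adjusted p = 0.0249), and in green alone the change was -4.04 (adjusted p = 0.00159), so the ratio gave the smaller difference. Its relative Pitx3, whose locus carries the reporter, was between 3.42 and 3.73 in all 8 pools. The cells were sorted for the reporter in this gene.

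Evx1, of spinal and hindbrain interneurons, was at -0.53, -0.61, -0.43 and -0.40 in caudal and at -3.36, -3.59, -5.22 and -4.40 in rostral pools (change -3.65, SE 0.35, adjusted p = 0.00184). Caudal pools lay just under the reference, and rostral pool 3 was again lowest. Evx1os was at least 2.57-fold higher in caudal pools, not well above background in any rostral pool. Its gene overlaps that of Evx1 on the other strand, and the strand read by the probes was not checked. Nkx6-1, of the ventral neural tube, was at 0.20, -0.42, -0.28 and 0.29 in caudal and -2.56, -1.83, -3.48 and -2.55 in rostral pools (change -2.55, SE 0.32, adjusted p = 0.00526). Otx2, which defines forebrain and midbrain and marks ventral tegmental neurons, was at -0.29, -0.57, -0.36 and -0.25 in caudal and -2.53, -1.54, -3.45 and -2.24 in rostral pools (change -2.07, SE 0.33, adjusted p = 0.0123). For both genes the parts did not overlap and rostral pool 3 was lowest.

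The 2 Engrailed genes, which maintain midbrain dopaminergic neurons, were moderately higher in caudal pools. En2 was at 2.40, 2.23, 2.33 and 2.41 in caudal and between 1.05 (pool 3) and 1.64 (pool 2) in rostral pools (change -0.90, SE 0.12, adjusted p = 0.00595), and En1 changed by -0.78 (SE 0.14, adjusted p = 0.0195). Beside En1, the transcript 2610027F03Rik changed by -2.22 (SE 0.36, adjusted p = 0.0129), at 2.99, 2.54, 2.72 and 2.90 in caudal and 0.87, 1.15, -0.69 and 0.95 in rostral pools. Rostral pool 3 stood apart on the low side. Among 12 Nkx genes, Nkx2-9 (change -2.24, adjusted p = 0.016) and Nkx6-1 were caudal, and Nkx2-1 and Nkx2-2 (1.05, adjusted p = 0.00576) rostral. Of 11 LIM homeobox genes, Lhx2 (-1.73), Lhx4 (-1.97) and Lhx9 (-1.60) were caudal and Isl1 (0.65) rostral; other probes gave -0.43 for Lhx4 (adjusted p = 0.718) and -0.42 for Lhx9 (adjusted p = 0.477). The iroquois genes Irx2 (-1.25) and Irx4 (-0.85), the paired-box gene Pax8 (-2.09) and the POU gene Pou4f2 (-2.78) were also caudal. Of 11 Hox genes tested, limma called 0 (1 at an unadjusted p below 0.05, and 1 call without caudal pool 2), with a median change of 0.05.

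**Figure D4:**
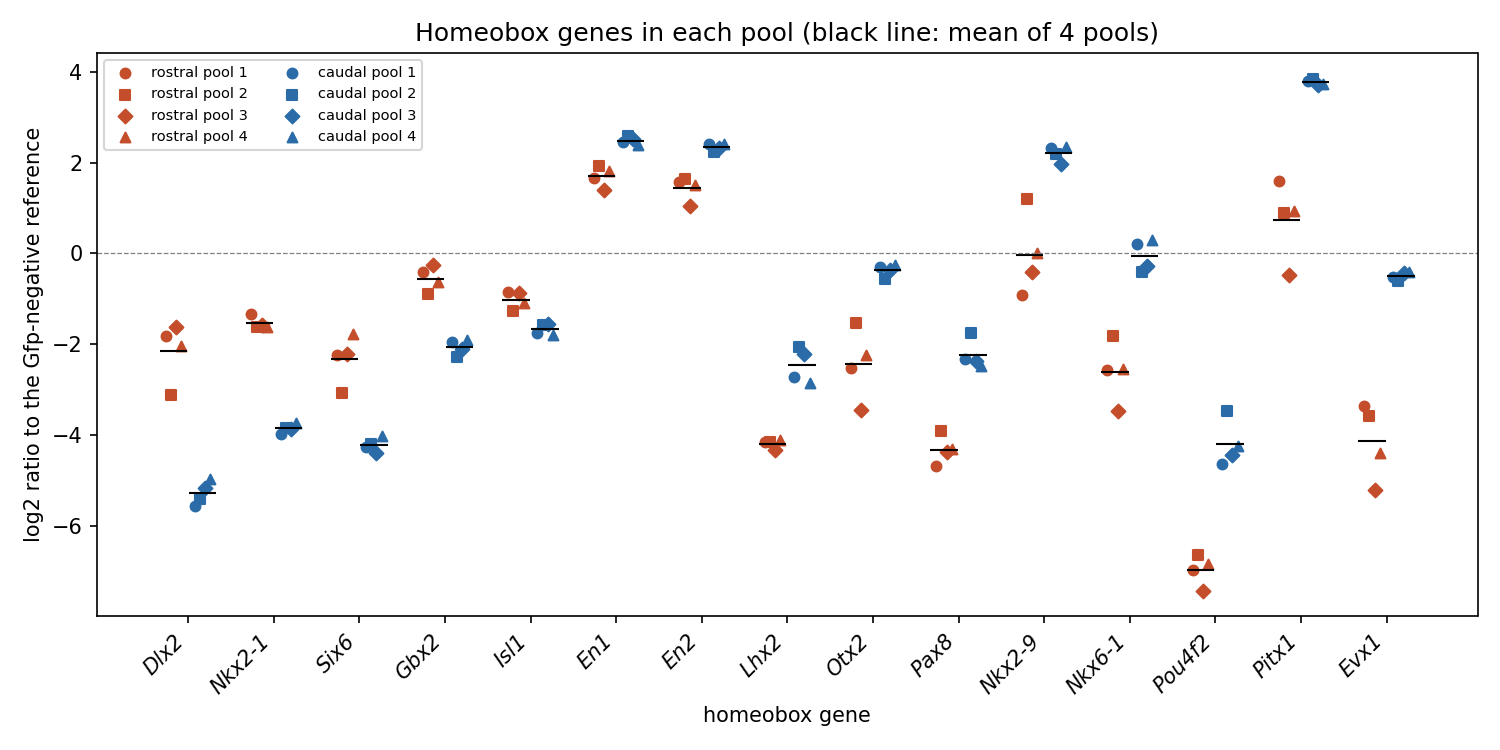
Log2 ratio to the Gfp-negative reference (vertical) of 15 homeobox genes in each pool, with rostral pools in red, caudal pools in blue, a marker shape for each replicate number and a black line at the mean of 4 pools. The parts do not overlap for any of the 15; caudal pools lie close together for Pitx1 and Evx1 (SD 0.06 and 0.10, n = 4) and rostral pools are spread (SD 0.86 and 0.85).

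Other regional factors followed. Of 8 Zic and Gli genes, Zic1 (2.53), Zic2 (1.25) and Zic4 (1.88) were rostral and Gli3, a mediator of Hedgehog signalling, caudal (-2.30, SE 0.13, adjusted p = 2.7e-04), and all 4 were called whichever pool was left out. Another probe of Zic1 gave -0.13 (adjusted p = 0.666). Gli3 was at -1.06, -1.49, -1.01 and -1.10 in caudal and at -3.45, -3.67, -3.44 and -3.29 in rostral pools. The pools of each part were tight and far apart. Of 36 nuclear receptors, 6 were rostral and 2 caudal (22.2%). Nr2f2 (1.67) and Nr2f1 (1.16), the COUP transcription factors, Nr2e1 (1.67), Esrrg (1.00), Nr5a1 (1.08), a gene of the ventromedial hypothalamus, and Pgr, the progesterone receptor (1.14), were rostral. Rorb (-1.26, another probe 0.09, adjusted p = 0.944) and Nr2f6 (-0.47) were caudal. Without caudal pool 4, 5 nuclear receptors were called.

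The Ets factors Etv1 (2.56, and 0.63 by another probe, adjusted p = 0.535) and Etv5 (1.12), the T-box genes Tbx3 (1.93) and Tbr1 (1.84), and the forkhead genes Foxb1 (0.67), of the mammillary region, and Foxd1 (1.11) were rostral. Of the T-box genes 1 was called without any single pool but caudal pool 4, and of the forkhead genes 1 without caudal pool 1 or 4. Of 42 bHLH genes of neurogenesis, Neurod2 (1.62) was rostral, and Tal2 (-1.79), of midbrain GABAergic neurons, Nhlh2 (-0.97), Tcf12 (-0.77) and Hes6 (-0.34) were caudal, and 3 of the 42 were called without caudal pool 1, 3 or 4 or rostral pool 4. Zfp zinc finger genes were little represented, with 2 rostral and 4 caudal of 331 (1.81%), and 3 in all without caudal pool 4 or rostral pool 1.

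The diencephalic and hypothalamic list, which shares members with the families above, had 13 rostral and 3 caudal calls of 34 tested (47.1%), with a median change of 0.67, and 14 to 17 calls when single pools were left out. The 3 caudal calls were Lhx2 (-1.73), Lhx9 (-1.60) and Irx2 (-1.25). Pmch, the precursor of melanin-concentrating hormone, was at -1.53, -2.83, -1.28 and -1.30 in rostral and -5.37, -4.82, -5.13 and -5.53 in caudal pools (change 3.47, SE 0.34, adjusted p = 0.00184). Fezf1, of the ventromedial hypothalamus and forebrain, was at -0.47, -1.76, -0.49 and -0.91 in rostral and -4.39, -3.83, -4.27 and -4.07 in caudal pools (change 3.23, SE 0.28, adjusted p = 0.00131). Rostral pool 2 was the lowest rostral pool for both, and for both a single caudal pool (1 of 4) was well above background. The isthmic and hindbrain list had 6 caudal calls (Evx1, Pax8, Nkx2-9, En1, En2 and the serotonergic gene Fev, -0.82) and 2 rostral calls (Gbx2 and Etv5) of 21.

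Signalling families came next. Of 52 Wnt ligands, receptors and regulators, 6 were rostral and 3 caudal (17.3%). Wnt8b, a ligand of the dorsal and caudal forebrain, was at -0.68, -1.79, -1.65 and -2.52 in rostral and -4.09, -3.86, -4.40 and -4.16 in caudal pools (change 2.46, SE 0.33, adjusted p = 0.00657). Wnt7b (1.40), Wnt7a (1.37), the secreted antagonist Sfrp2 (1.30), the activator Rspo2 (1.23) and the transcription factor Tcf7l2 (1.23) were also rostral, with -0.01 and 0.48 by other Tcf7l2 probes (adjusted p = 0.981 and 0.311). The receptor gene Fzd10 was caudal, at 1.34, 1.55, 1.38 and 1.44 in caudal and -0.03, -0.02, -1.19 and -0.13 in rostral pools (change -1.77, SE 0.24, adjusted p = 0.00657), as were Wnt5b (-0.92) and Tcf7l1 (-0.60). Fzd10 crossed the reference in every pool. Neither Wnt1 (-0.33, adjusted p = 0.21) nor Wnt5a (0.09, adjusted p = 0.87), both ligands needed for dopaminergic neurons, passed. Without caudal pool 1, 3 Wnt genes were called, 4 without caudal pool 2 or 4, and 5 without rostral pool 3 or 4.

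Of 34 Fgf genes, 5 were rostral, among them the receptor gene Fgfr3 (1.44; another probe -0.35, adjusted p = 0.246), the target Etv5 and the intracellular Fgf12 (0.95) and Fgf13 (0.78), and the antagonist Il17rd was caudal (-0.78). Fgf8, the isthmic ligand, was at -0.01 (adjusted p = 0.955). Of 62 TGF-beta and BMP genes, 4 were rostral and 5 caudal: the activin subunit gene Inhbb (1.44) and Tgfb2 (0.67) rose in rostral pools, and the BMP antagonist gene Nbl1 (-1.45), the latent binding protein gene Ltbp3 (-1.19) and Bmp5 (-1.10) in caudal pools. Bmp5 was dim: it was well above background in 1 rostral pool and all 4 caudal pools, and its reference on 1 array. Gdf5 was rostral by the brightest probe (1.81, adjusted p = 0.0485) and unchanged by another (0.02, adjusted p = 0.972). The Hedgehog list had 1 rostral and 4 caudal calls of 19, which are Gli3, Nkx6-1, Nkx2-9 and Hhat (-0.83), the acyltransferase of Hedgehog ligands; Shh itself was at -0.44 (adjusted p = 0.392). Without caudal pool 4, 5 TGF-beta and BMP genes and 3 Hedgehog genes were called.

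Of 26 Notch genes, 2 were rostral and 4 caudal: the ligand genes Dll1 (0.70) and Dner (0.30) against Dll3 (-0.97), Dlk1 (-0.39), the glycosyltransferase gene Mfng (-0.89) and the effector gene Hes6. Among 20 retinoic acid genes, Aldh1a1, which makes retinoic acid, was rostral, and Cyp26b1, which degrades it (-1.56), and Dhrs3, which reduces retinal (-0.73), were caudal. Of neurotrophin and GDNF genes Bdnf was rostral, at 2.54, 2.50, 3.06 and 2.54 against 1.41, 1.53, 1.89 and 1.13 in caudal pools (change 1.17, SE 0.18, adjusted p = 0.0114). All 8 pools of Bdnf lay above the reference. The receptor gene Ngfr was caudal (-1.38, SE 0.13, adjusted p = 0.00149), as was Ret, the GDNF receptor kinase (-0.42, adjusted p = 0.0387). In green alone Ret did not pass (-0.26, adjusted p = 0.416). The chemokine receptor gene Cxcr4 was caudal (-2.34, adjusted p = 0.0311), at 1.89, 2.05, 1.74 and 1.95 in caudal and 0.12, 0.42, -2.09 and -0.16 in rostral pools, and rostral pool 3 was far below the others. Igfbp2 (-0.97) and its chromosomal neighbour Igfbp5 (0.70), both binding proteins of insulin-like growth factors, went opposite ways. The Notch count was 2 without caudal pool 1 and 3 without caudal pool 4 or rostral pool 2, 3 or 4.

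Guidance receptors and ligands were called in both directions. Of 22 Eph receptors and ephrins, the receptor genes Epha3 (1.84), Epha7 (1.43), Epha4 (1.09) and Epha6 (0.84) were rostral, and the receptor gene Ephb1 (-0.55) with the ligand genes Efnb1 (-0.83) and Efnb3 (-0.32) was caudal, so all 4 rostral calls were A-class and all 3 caudal calls B-class. Epha3 was at 0.04, -0.55, 0.30 and 0.11 in rostral and -2.12, -1.87, -1.57 and -1.88 in caudal pools (SE 0.20, adjusted p = 0.0031). Rostral pools were near the reference and caudal pools well below it. The count was 4 without caudal pool 3 or 4. In green alone Epha6 did not pass (0.79, adjusted p = 0.123). Of 30 semaphorin, plexin and neuropilin genes, 3 were rostral and 3 caudal: the secreted Sema3c led, at 0.10, -0.28, -0.35 and -0.86 in rostral and -3.01, -2.54, -2.41 and -2.91 in caudal pools (change 2.37, SE 0.21, adjusted p = 0.00149), followed by Sema5b (0.87) and Sema5a (0.79). The co-receptor gene Nrp1 (-0.79), Plxnc1 (-0.45) and Sema4b (-0.30) were caudal. Of 22 Slit, Robo and netrin genes, Robo2 (1.34), Unc5c (1.28), Ntng1 (1.06) and Flrt3 (0.72) were rostral and Unc5b (-0.56) and Unc5a (-0.47) caudal. In green alone 3 genes of this list were called rostral and 0 caudal, so Unc5b and Unc5a did not pass there. The semaphorin count was 2 without caudal pool 1 or 4 and 3 without rostral pool 4, and the Slit and Robo count was 2 without caudal pool 1 or 4 or rostral pool 3 and 3 without rostral pool 1 or 4.

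Adhesion genes followed. Of 41 protocadherins 7 were rostral and 1 (Pcdh8, -0.34) caudal, with a median change of 0.21, led by Pcdh17 (0.89) and Pcdh19 (0.84). Of 44 immunoglobulin adhesion genes 5 were rostral, with Cadm2 at 0.93, 0.97, 1.31 and 0.73 against -0.38, -0.28, -0.39 and -0.29 (change 1.32, SE 0.14, adjusted p = 0.00262), and 2 caudal. Cadm2 lay above the reference in every rostral and below it in every caudal pool, and its other 2 probes gave 1.16 and 1.22. Of 41 synaptic adhesion genes, Slitrk4 (1.35), Lrfn2 (1.08), Lrrc4c (0.99), Cbln1 (0.89), Slitrk1 (0.76) and Tenm2 (0.50) were rostral and Tenm4 (-0.59) caudal. Of 36 collagens, Col25a1 (2.45, with 0.23 by another probe, adjusted p = 0.333), Col11a1 (1.74) and Col22a1 (1.14) were rostral and Col2a1 (-1.18) and Col4a2 (-1.02) caudal. The protocadherin count depended on the pools: 2 without caudal pool 1, 3 without caudal pool 4 or rostral pool 3 or 4, 4 without caudal pool 2 and 5 without rostral pool 2. The immunoglobulin count was 4 without caudal pool 1, 3 or 4, the synaptic count 4 without caudal pool 1 or rostral pool 3, and the collagen count 3 without caudal pool 1 or 4.

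Receptors for fast transmitters were called mostly higher in rostral pools. Of 23 glutamate receptor genes 6 were rostral and 2 caudal (34.8%), and the median change of the family was 0.48. Grik1, a kainate receptor subunit, was at -0.09, 0.01, 0.45 and -0.16 in rostral and -1.97, -1.55, -1.70 and -1.64 in caudal pools (change 1.77, SE 0.16, adjusted p = 0.00149). Its relative Grik3 went the other way, at 0.93, 1.13, 1.13 and 1.10 in rostral and 1.96, 1.77, 1.57 and 1.91 in caudal pools (change -0.73, SE 0.10, adjusted p = 0.00611). The AMPA receptor gene Gria1 (1.33), the metabotropic Grm3 (1.27) and Grm5 (1.05; another probe 0.15, adjusted p = 0.784), the kainate subunit gene Grik2 (0.98) and the NMDA subunit gene Grin1 (0.63) were rostral and Grm2 (-0.54) caudal. Of 21 GABA and glycine receptor genes 5 were rostral and 0 caudal (23.8%), with a median of 0.28. Gabrg3 (1.42; another probe 0.09, adjusted p = 0.913), Gabra3 (0.71) and Gabrb2 (0.38) were among them. Without caudal pool 1 or 3 or rostral pool 2 or 3, 5 glutamate receptor genes were called, and without caudal or rostral pool 4, 3 GABA receptor genes.

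Slc12a5, the chloride exporter that sets the sign of GABA responses, was rostral (0.68, adjusted p = 0.0053), as were the inositol transporter gene Slc2a13 (1.66) and 10 other solute carriers of 273, against 4 caudal (5.86% in all; 9 without caudal pool 1 and 10 without caudal pool 2 or 4). Potassium channel genes, with 0 rostral and 3 caudal of 73 (4.11%, against 5.01% over all genes), included Kcnk9, a leak channel gene strongly marking these neurons, at 4.11, 4.10, 4.11 and 3.92 in rostral and 5.08, 4.96, 5.11 and 5.05 in caudal pools (change -0.99, SE 0.07, adjusted p = 7.4e-04). Both parts were far above the reference. The channel partner gene Kcnip4 (-0.61) was also caudal. The nicotinic subunit gene Chrna4 was rostral (0.44), and Chrna6 did not pass (-0.25, adjusted p = 0.201).

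Of 41 peptide hormone receptor genes, 2 were rostral and 4 caudal (14.6%). Npy1r, for neuropeptide Y, was at 1.97, 1.96, 3.13 and 2.21 in rostral and -0.04, 0.89, 0.62 and 0.11 in caudal pools (change 1.92, SE 0.29, adjusted p = 0.0108). Gipr, for the incretin GIP, was at 3.20, 2.83, 2.76 and 3.18 in caudal and 1.59, 1.47, 0.56 and 1.07 in rostral pools (change -1.82, SE 0.23, adjusted p = 0.00505). The melanocortin receptor gene Mc3r (-1.64) and both cholecystokinin receptor genes, Cckbr (-1.35) and Cckar (-1.28), were caudal too. The peptide genes called were Pmch, Nms (1.33) and Nxph4 (0.97) in rostral and Sst (-1.06) in caudal pools, 4 of 45 (8.89%), and 2 without rostral pool 3 or 4. Cck, the ligand of the cholecystokinin receptors, was at 2.46 to 2.60 in caudal and at 1.44, 2.40, 0.59 and 1.95 in rostral pools (-0.96, adjusted p = 0.171) and did not pass. In red alone the reference was called lower beside rostral pools (-0.93, adjusted p = 0.0156), and in green alone Cck, lower in rostral pools as well, did not pass (adjusted p = 0.0578). Of 24 monoamine receptor genes, Adra2a (1.42), Htr2c (1.05) and Adrb3 (0.67; another probe 0.02, adjusted p = 0.973) were rostral and Hrh3 (-0.78) caudal.

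Nefl, the light neurofilament (1.05, adjusted p = 0.015), and the splicing factor gene Rbfox3, a marker of mature neurons (0.30, adjusted p = 0.024), were rostral. Tubb3, the neuronal tubulin, was caudal, at -0.01, 0.08, -0.09 and 0.02 in caudal and -0.44, -0.40, -0.36 and -0.35 in rostral pools (change -0.39, SE 0.04, adjusted p = 0.00324). The calcium sensor genes Caln1 (1.97) and Vsnl1 (1.59) were rostral. The 66 synaptotagmin and SNARE genes had 4 calls (6.06%, near the 5.01% over all genes), all rostral (Syt6, 0.79; Rims4, 0.74; Cplx1, 0.65; Syt5, 0.43). All 4 calls among 19 sialyltransferases, led by St3gal1 (1.22), were rostral too. The SNARE count was 0 without the intensity trend and with median centring (the sialyltransferase count 1 in both), and it was 1 without caudal pool 1 or 4 or rostral pool 2, 3 or 4 and 2 without caudal pool 3; the sialyltransferase count was 1 without caudal pool 1 and 2 without caudal pool 4 or rostral pool 2, 3 or 4.

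Among housekeeping lists, cholesterol synthesis was the exception. Of 21 genes of this pathway and its control, 7 were caudal and 0 rostral (33.3%), all changes lay between -1.61 and 0.00, and the median was -0.30. Insig1, the sterol sensor, led, at 1.45, 1.88, 1.32 and 2.08 in caudal and -0.73, 0.31, -0.23 and 0.91 in rostral pools (change -1.61, SE 0.34, adjusted p = 0.035). The enzyme genes Ebp (-0.48), Msmo1 (-0.41), Fdps (-0.31), Sqle (-0.31) and Idi1 (-0.29) followed. Fdps was at 0.59, 0.53, 0.49 and 0.51 in caudal and 0.23, 0.20, 0.21 and 0.26 in rostral pools (SE 0.04, adjusted p = 0.00633). Both parts lay above the reference and did not overlap. Hmgcs1, an enzyme early in the pathway, was at -0.25 (adjusted p = 0.119) and did not pass on the ratio. Scd1, a desaturase of fatty acid synthesis outside this list, named after its value was seen, was at -0.93 (adjusted p = 0.0187). Insig1 lies beside En2. In green alone 6 genes of the list were called caudal, not all of them the same genes. Hmgcs1 passed there (adjusted p = 0.0422), and Insig1 (adjusted p = 0.0563) and Sqle (adjusted p = 0.0782) did not. On the ratio the count was 4 without caudal pool 1 and 3 without caudal pool 4, and it was 3 without the intensity trend and 4 with median centring.

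Ribosomal, respiratory and proteasome genes were little represented among calls. Of 80 cytosolic ribosomal protein genes 1 was called (Rps27l, -0.25), of 96 respiratory chain and ATP synthase genes 1 (Uqcc3, -0.38), of 46 proteasome genes 1 (Psma7, -0.26) and of 74 mitochondrial ribosomal protein genes 2, all caudal, with list medians of -0.09, -0.01, -0.01 and -0.01. All 5 calls were lost without caudal pool 1. The mitochondrial ribosomal count was 0 whichever pool was left out, and the cytosolic ribosomal and proteasome counts were each 0 in 6 such fits. Of 36 cell cycle genes 2 were rostral, Ccne1 (0.52) and Rrm2 (0.53), and 0 or 1 were called when any single pool was left out. Of 285 olfactory receptor genes limma called 0, with 3 at an unadjusted p below 0.05, and 1 without caudal pool 1.

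Of 17 genes that make, carry and break down dopamine, 1 was called rostral and 3 caudal. Th, the rate-limiting enzyme, was at 3.41, 3.38, 3.50 and 3.26 in rostral and 3.30, 3.21, 3.39 and 3.24 in caudal pools (change 0.10, SE 0.06, adjusted p = 0.508), and the parts overlapped. Slc18a2, the vesicular monoamine transporter, was at 4.73, 4.79, 4.53 and 4.58 in rostral and 5.22, 5.08, 5.31 and 5.26 in caudal pools (change -0.56, SE 0.09, adjusted p = 0.0123; another probe -0.62). Gch1, which makes the cofactor of Th (-0.41, adjusted p = 0.0367), was also caudal. Aldh1a1, which detoxifies the dopamine aldehyde and marks ventral nigral neurons, was at 5.97, 6.06, 5.75 and 5.86 in rostral and 5.43, 5.14, 5.39 and 5.42 in caudal pools (change 0.57, SE 0.09, adjusted p = 0.0125). For Slc18a2 and Aldh1a1 the parts did not overlap, in opposite directions. Ddc was at 0.20 (adjusted p = 0.274), Drd2 at 0.04 (adjusted p = 0.973), Nr4a2 at 0.04 (adjusted p = 0.911), Lmx1a at -0.01 (adjusted p = 0.982), Lmx1b at 0.27 (adjusted p = 0.621), Foxa1 at -0.31 (adjusted p = 0.0897) and Foxa2 at -0.21 (adjusted p = 0.113; another probe -0.40, adjusted p = 0.0492).

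Among 18 markers of the substantia nigra, Ndnf (1.61), Nrip3 (0.89), Lmo3 (0.73) and Aldh1a1 were rostral and Dlk1 (-0.39; -0.08 in green alone, adjusted p = 0.267) caudal, and Sox6 did not pass (0.62, adjusted p = 0.24). Among 19 markers of the ventral tegmental area, Sema3c was rostral and Otx2 and Plxnc1 caudal, and Calb1 did not pass (-0.24). Of 28 Parkinson's disease genes Gch1 alone was called (3.57%), and not without caudal pool 1 or 4 or rostral pool 1, 3 or 4.

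Markers of some other cell types moved with the parts, while the means of others overlapped. The GABAergic mean was -2.71 to -2.29 in rostral and -2.92 to -2.43 in caudal pools. Motor and oculomotor means (-0.80 to -0.53 and -0.78 to -0.15) and oligodendrocyte precursor means (-3.61 to -3.01 and -3.92 to -3.52) overlapped too. Of 13 hypothalamic markers 5 were rostral and 0 caudal, and their mean log2 ratio was -1.57 to -0.76 in rostral and -2.48 to -2.05 in caudal pools, below the reference throughout and lowest among rostral pools in pool 2. Of 7 glutamatergic and red nucleus markers 3 were caudal (Pou4f2, Lhx2 and Lhx9) and 1 rostral (Tbr1), with means of -3.32 to -2.96 in rostral and -2.65 to -2.20 in caudal pools. Of 9 platelet and megakaryocyte markers 4 were rostral, Ppbp (2.48), Gp1ba (2.12), Itgb3 (1.62) and Pf4 (1.54), and their mean reached 2.14 in rostral pool 3 and was lowest among rostral pools in pool 1, while caudal pools held 0.08 to 1.09, so the parts did not overlap and all 8 pools lay above the reference. Ppbp, a platelet chemokine, was at 2.60, 3.19, 3.35 and 3.36 in rostral and -0.25, 0.56, 2.15 and 0.11 in caudal pools. Caudal pool 3 came nearest to the rostral pools. The platelet calls were 0 without caudal pool 1, 1 without caudal pool 2 or 4 or rostral pool 2, 3 or 4. In green alone Gp1ba did not pass (1.90, adjusted p = 0.164). Mrc1, of macrophages, rose (2.07, adjusted p = 0.00564) while the mean of 13 microglia markers overlapped between parts (-0.30 to 0.81 in rostral, -0.62 to 0.77 in caudal pools). The part these cells had in the gene families above was not tested.

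Endothelial, erythroid and dissociation-response markers had 0 calls by limma of 10, 12 and 9 (1, 0 and 2 at an unadjusted p below 0.05). The radial glia mean was -2.61 to -2.18 in rostral and -2.64 to -2.22 in caudal pools, with 1 of 13 called (Vim, -0.63; 0 without caudal pool 3 or 4 or rostral pool 4). The mean of pan-neuronal markers was 0.48 to 0.59 in rostral and 0.24 to 0.34 in caudal pools, and the parts did not overlap. The dopaminergic mean was lower in rostral pools, while the median change of its 12 genes was -0.00: En2, En1 and Slc18a2 were called caudal and 0 were called rostral. The serotonergic mean over 5 markers, 1 of them called (Fev), was -2.39 to -2.06 in rostral and -2.03 to -1.47 in caudal pools, narrowly without overlap. The serotonergic list shares Gata2 and Gata3 with the GABAergic list and Lmx1b with the dopaminergic list. The mesenchymal mean was -2.69 to -2.52 in rostral pools 1, 3 and 4, -2.89 to -2.65 in caudal pools and -1.27 in rostral pool 2, where the collagen gene Col1a1 was at 3.73.

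**Figure D5:**
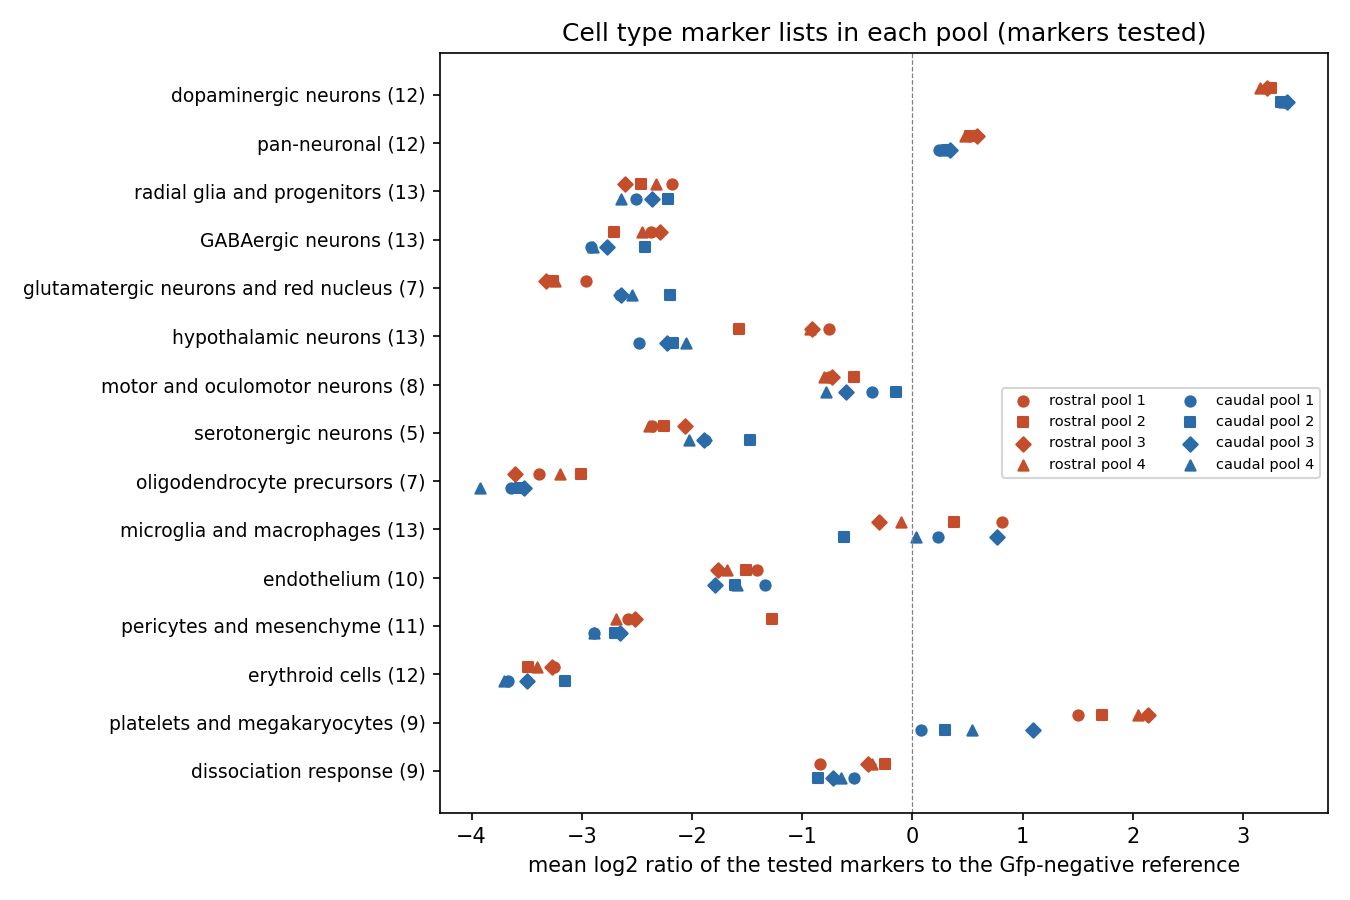
Mean log2 ratio to the Gfp-negative reference (horizontal) of the tested markers of each cell type (number in brackets) in each pool, rostral in red and caudal in blue, with a marker shape for each replicate number. Hypothalamic, platelet and pan-neuronal means are higher and glutamatergic, serotonergic and dopaminergic means lower in all 4 rostral pools, and rostral pool 2 stands apart for mesenchyme.

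Pools of a part were not alike in how far they lay from the other part. Of the 408 caudal-high genes, rostral pool 3 was the lowest rostral pool for 183 (44.9%) and rostral pool 2 for 58 (14.2%). Of the 500 rostral-high genes, rostral pool 3 was the highest rostral pool for 183 (36.6%) and rostral pool 1 the lowest for 205 (41.0%). Among caudal pools, pool 3 was the lowest for 168 of the caudal-high genes (41.2%) and the highest for 190 of the 500 rostral-high genes. Rostral pool 3 lay farthest from the caudal pools and caudal pool 3 nearest to the rostral pools more often than the others of their part.

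Some called genes were neighbours. Of the genes compared, 17122 could be ordered along chromosomes by RefSeq, and in 77 pairs of adjacent genes both were called, 60 in the same and 17 in opposite directions. The next gene was called for 8.63% of the called genes so ordered. Over all 18110 genes 5.01% were called, and these include 988 genes outside the RefSeq table (1.62% called). Among these pairs, neighbours with the same direction were Zic1 and Zic4, Trpc6 (1.84) and Pgr, Nr2f2 and the transcript B130024G19Rik (1.17), Ppbp and Pf4, Dach2 (1.94) and Klhl4 (1.11) on the rostral side, and Insig1 and En2 on the caudal side. Opposite neighbours were Nkx2-1 and Nkx2-9, Igfbp2 and Igfbp5, and Wnt8b and Scd1.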

How the data were processed

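The authors scanned 2-colour arrays and deposited spot intensity values and flags, made with Agilent's Feature Extraction software (version 10.7.3.1 in the submitters' processing notes). Those notes also list RMA, without a role. Here the median spot and background intensity of each channel, as deposited, was corrected by normexp (offset 50) and normalized within arrays by loess, and spots of a probe were averaged. Probes well above background in green on at least 4 of 8 arrays were fitted with limma 3.58.1 in R 4.3.3 (lmFit, eBayes with an intensity trend, 2-sided), with Benjamini-Hochberg adjustment over all of them and calls at an adjusted p below 0.05. Such an adjusted p is meant wherever the text prints one. Green or red alone was quantile normalized between arrays. The number of arrays limits the precision.

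Genes were named through RefSeq's table or the symbols of an annotated series table. The 8 value columns of that table match no sample label and were not used. The brightest passing probe stands for a gene. Promoter windows are the 250 bases before RefSeq's start; the 50 after it in the RefSeq table were left out.

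Members and gene lists were chosen with earlier results of these data known. The text names the 15 largest changes per direction among called genes with separate pools, up to 5 called members per list and direction by p, dopaminergic genes and cell type markers. Uncalled ligands, enzymes and regional markers, further called members of short lists, and neighbours were added after their values were seen. Alternatives covered background, normalization, the filter, blocks, left-out pools, slide rows, the trend and probe choice. Same-numbered pools of the parts did not deviate together (correlations of 0.03, -0.01, -0.02 and -0.01 across probes), so the comparison is unpaired. Some members of the lists are not reported here by name.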

Additional observations from a re-analysis of the deposited data

Results flagged for a closer look

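Of 412 groups of 4 pools, 2 for each of 206 named genes, 26 (6.31%) held 1 pool far from the other 3 by Dixon's criterion, and chance sets about 1 in 20 groups apart. Each value is the log2 ratio of that pool, followed by the range of the other 3 pools of its part. Rostral pool 1 stood apart for Dlk1 at 1.53 (1.77 to 1.81), Grik3 at 0.93 (1.10 to 1.13), Tbr1 at 0.28 (-1.28 to -1.05) and Vsnl1 at 1.11 (1.76 to 1.84). Rostral pool 2 stood apart for Dlx1 at -1.78 (below the other 3) and Pmch at -2.83 (-1.53 to -1.28). Rostral pool 3 stood apart for 2610027F03Rik at -0.69 (0.87 to 1.15), Bdnf at 3.06 (2.50 to 2.54) and Fzd10 at -1.19 (-0.13 to -0.02). Rostral pool 4 stood apart for Adrb3 at 4.33 (4.12 to 4.13), Dhrs3 at -0.53 (-0.81 to -0.78), Kcnk9 at 3.92 (4.10 to 4.11) and Syt6 at -1.01 (-1.49 to -1.46). Caudal pool 1 stood apart for Drd2 at 2.41 (1.91 to 1.99) and Rims4 at -0.36 (0.11 to 0.21). Caudal pool 2 stood apart for Aldh1a1 at 5.14 (5.39 to 5.43), Cck at 2.46 (2.58 to 2.60), Chrna4 at 1.49 (1.34 to 1.35), Klhl4 at -0.17 (-0.08 to -0.07), Sst at -2.65 (-3.15 to -3.08) and Tcf12 at 1.83 (below the other 3). Caudal pool 3 stood apart for Fgf8 at -0.03 (-0.13 to -0.12), Ngfr at -0.32 (-0.05 to -0.02) and Pcdh17 at -0.67 (-1.01 to -0.96). Caudal pool 4 stood apart for Epha7 at -2.06 (-1.17 to -1.06) and Tcf7l1 at -1.77 (above the other 3).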

How the results depend on the processing

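The 186 called genes that the text names kept their direction under each of the 21 settings in which they were tested. Some of the 20 named genes that were not called changed sign. There were 13 such cases over the fits that left out 1 pool and 3 in each slide row alone. The number of called genes and probes moved more. Against 908 genes and 1236 probes, the replicate number as a block gave 465 genes and 609 probes; the numbers pair nothing in the labels, and same-numbered pools did not deviate together. Leaving out 1 pool gave 480 to 788 genes and 639 to 1068 probes, the lowest without caudal pool 1, and the probe count fell by over 1.5 times also without caudal pool 3 (819) or 4 (641) and rostral pool 3 (814) or 4 (762). Within the first or the second slide row alone, with 2 pools a part, 0 genes and 0 probes were called by limma, with 2467 and 2550 genes at an unadjusted p below 0.05. Without the intensity trend 605 genes were called. Beside the lists given in the text, further lists with 4 or more calls fell by over 1.5 times. They were Slit and Robo genes (6 to 2), protocadherins (8 to 4), Notch genes (6 to 2), chemokines (5 to 3) and solute carriers (16 to 10). Kinesins and dyneins (4 to 1), nigral markers (5 to 3), calcium-binding proteins (4 to 2) and platelet markers (4 to 2) fell too. Smaller falls and those of lists with fewer calls are left out here. Median centring gave these named lists the same counts except for protocadherins (5), Slit and Robo genes (4) and solute carriers (13). For the fewer calls with fewer pools, fewer samples were fitted; for the others the cause was not tested. The other settings, named here with their gene counts, were Feature Extraction's processed signals (820), no background subtraction (913), median centring (637), green alone (859), no filter (761), all 8 arrays above background (983), slide row as a block (772), 1 probe per gene (1141) and the mean over probes (966). In red alone, processed signals gave 5 probes against 4.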
